A study of Mus musculus with 28 samples.

Results

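The JAK and STAT genes described here are the 4 mouse Janus kinase genes Jak1, Jak2, Jak3 and Tyk2 and 5 genes for STAT transcription factors, Stat2, Stat3, Stat5a, Stat5b and Stat6. They were chosen by gene symbol and make up 9 of the 18274 genes named in at least 1 of 5 deposited tables, and every peak annotated to one of them was used. The cells were hair follicle stem cells, which sit in the bulge of the follicle and regrow the hair, sorted from trypsin-treated skin as cells carrying CD34 and α6 integrin. Old mice were 24 months of age and young mice 6 months, all under the strain label 132-C67BL/6J, and the labels name no allele, transgene or treatment and do not say how many animals went into a sample. RNA-seq covered 3 old and 3 young samples, ATAC-seq (a measure of open chromatin) 4 and 4, and ChIP-seq for H3K27me3 (the Polycomb mark) 3 and 3. ChIP-seq for H3K4me3 (the mark of promoters in use or held ready) and for RNA polymerase II (Pol2) covered 2 old and 2 young samples each.

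Cytokine receptors have no kinase of their own. Janus kinases bound to their cytoplasmic tails phosphorylate the receptor and the STAT proteins that dock there, and the STAT proteins pair, enter the nucleus and bind DNA. Genes for SOCS proteins are among their targets and shut the pathway down again. In mouse skin, STAT3 is known for its part in hair growth and wound repair, and JAK inhibitors are known to push resting follicles into growth.

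The promoters of the 4 members that carried a Pol2 peak are printed first, because these starts had both H3K4me3 and Pol2 called lower. All are 300-base windows, from 250 bases before to 50 bases after the RefSeq start, on build GRCm38.p6, written 5′ to 3′ on the strand of the gene. In the Stat2 window, chr10:128270248-128270547 on the plus strand, the capitals mark GAAA repeated after a gap of 2 bases, the core letters of the interferon-stimulated response element (here on the minus strand), followed by TTC and GAA with 4 bases between them, a wider-spaced form of the STAT site.
Stat2: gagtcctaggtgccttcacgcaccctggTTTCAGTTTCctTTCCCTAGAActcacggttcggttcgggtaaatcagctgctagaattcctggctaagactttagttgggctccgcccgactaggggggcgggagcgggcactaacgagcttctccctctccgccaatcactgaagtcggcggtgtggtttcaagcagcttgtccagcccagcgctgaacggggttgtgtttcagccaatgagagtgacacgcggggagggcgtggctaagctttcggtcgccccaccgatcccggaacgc
These matches begin at −222 and −210 bases from the start and do not overlap. Stat2 was the only member with either motif in the 11 windows that the RefSeq promoter table holds for the 9 members, both strands searched. Of all 32851 mouse promoter windows, 3.44% hold the first motif and 6.95% the second. The usual STAT site TTCNNNGAA was in 0 of the 11 windows and in 8.30% of all windows.

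In the next windows, of Stat3 (chr11:100939491-100939790, minus strand), Jak1 (chr4:101265174-101265473, minus strand) and Stat6 (chr10:127642736-127643035, plus strand), the capitals mark GGGCGG, the core of the GC box, and CCAAT, on either strand.
Stat3: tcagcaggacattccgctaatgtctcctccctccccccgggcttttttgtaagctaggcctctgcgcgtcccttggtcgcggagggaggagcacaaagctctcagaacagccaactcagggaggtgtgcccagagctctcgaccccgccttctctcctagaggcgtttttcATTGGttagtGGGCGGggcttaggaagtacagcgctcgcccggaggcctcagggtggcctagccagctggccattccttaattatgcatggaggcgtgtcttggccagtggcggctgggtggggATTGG
Jak1: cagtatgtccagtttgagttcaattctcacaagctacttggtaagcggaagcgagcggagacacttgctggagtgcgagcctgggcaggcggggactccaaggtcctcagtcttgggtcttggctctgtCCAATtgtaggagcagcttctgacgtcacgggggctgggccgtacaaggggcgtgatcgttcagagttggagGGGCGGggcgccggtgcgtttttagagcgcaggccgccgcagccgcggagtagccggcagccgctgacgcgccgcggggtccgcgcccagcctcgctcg
Stat6: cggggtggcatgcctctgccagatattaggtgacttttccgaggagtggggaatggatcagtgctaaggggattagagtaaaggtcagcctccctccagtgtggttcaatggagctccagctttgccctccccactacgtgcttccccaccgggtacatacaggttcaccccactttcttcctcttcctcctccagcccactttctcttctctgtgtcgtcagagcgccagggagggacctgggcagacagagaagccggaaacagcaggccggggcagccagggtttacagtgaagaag
The Stat6 window holds neither of these letters, while Stat3 has 1 GGGCGG and 2 CCAAT and Jak1 has 1 of each. GGGCGG was in 8 of the 11 member windows, against 35.7% of all windows, and CCAAT in 4 of 11, against 37.4%. None of the 11 held TATAAA, which 13.6% of all windows hold. The windows ranged widely in base composition. Stat5b had 50 CpG dinucleotides and a GC content of 82.7% in its first window, and Jak2 had 44 and 81.0%. Jak1 had 29 and 64.7%, Stat3 15 and 60.7% and Stat6 8 and 57.3%. The first Stat5a window had 5 and 57.7%, and the second Stat5b window 7 and 47.3%. The median of all windows was 7 CpG and 52.7%.

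The promoters of all 9 members carried H3K4me3 at both ages, and at each the level was lower in old cells. The peak that covers the RefSeq start had a log2 fold change, old over young, between −1.54 at Stat5a and −1.21 at Tyk2, with FDR values from 7.01e-07 to 4.55e-05 in the authors' deposited table. Nearly every promoter in the table moved the same way. The authors' deposited table has 94.3% of all promoter peaks (within 1 kb of a start site) called lower in old cells at an FDR under 0.05, and their median log2 fold change was −1.42, with quartiles of −1.57 and −1.28. The members sat inside that distribution: 7 of the 9 main peaks lay between the quartiles, 4 below and 5 above the promoter median. Counting all 19 member peaks, 14 were called lower, 0 higher and 5 were not called, beside 79.1% lower and 0.281% higher among all the H3K4me3 peaks deposited. The median over the 19 was −1.22, beside −1.37 over all peaks. At an unadjusted p under 0.05 the deposited DiffBind test has 15 lower and 0 higher. The deposited levels are means of each age with no values per sample, so the spread between samples cannot be shown. The normalization and depths of the ChIP-seq are not known. A technical shift shared by all peaks and less signal in the cells therefore cannot be told apart, here or for Pol2.

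Among the kinase genes, the main H3K4me3 peak of Jak1, the kinase shared by most cytokine receptors, had a log2 level of 9.70 in old and 11.13 in young cells, a log2 fold change of −1.43 in the authors' deposited table. At Jak2, which serves the growth hormone, erythropoietin and interferon-γ receptors, the log2 levels were 10.42 in old and 11.74 in young cells (−1.32 in the authors' deposited table). Jak3, which works with the common γ chain of lymphocyte receptors, had 8.92 in old and 10.39 in young cells (−1.47 in the same deposited table). These 3 values differ by less than the width of the promoter interquartile range. Tyk2, the kinase of type I interferon and interleukin-12 receptors, had 9.37 in old and 10.58 in young cells (−1.21 in the authors' deposited table). Its peak is annotated at −1883 bp from a start site, but the RefSeq start of Tyk2 lies inside it. Jak3 had another pair of small peaks, at −1966 bp and −22 bp in the deposited annotation, with log2 fold changes of −1.16 (FDR 0.0453) and −1.28 (FDR 0.0485) in the authors' deposited table.

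Among the factor genes, Stat5a, activated by prolactin, growth hormone and interleukin-2 family cytokines, had log2 levels of 9.61 in old and 11.14 in young cells at its main peak (−1.54 in the authors' deposited table). Its neighbour Stat5b, which encodes a close relative of STAT5A, had 10.92 in old and 12.14 in young cells (−1.22 in the authors' deposited table). Stat2, the partner of IRF9 in the complex formed after type I interferon, had 9.28 in old and 10.73 in young cells (−1.45 in the authors' deposited table). For Stat3, the factor of the interleukin-6 family, the values were 11.01 in old and 12.32 in young cells (−1.31 in the same deposited table). Stat6, the factor of interleukin-4 and interleukin-13, had 11.20 in old and 12.52 in young cells (−1.32 in the same deposited table). Measured against the median of all H3K4me3 peaks, −1.37, the sign differed between members: Jak1, Jak3, Stat2 and Stat5a were lower in old cells by 0.06 to 0.17 on the log2 scale, while Jak2, Tyk2, Stat3, Stat5b and Stat6 stood above that median by 0.05 to 0.16.

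The members differed in the breadth of the mark. The main H3K4me3 peaks of Stat3, Stat5b and Stat6 were 8820, 8694 and 8455 bp wide, wider than 95.3%, 95.1% and 94.7% of promoter peaks, and that of Jak3 was 2556 bp wide, wider than 27.6%. The Stat3 peak also covers the RefSeq start of another gene, Gm46295. Per kb of peak, old cells had log2 levels from 7.26 at Stat5a to 8.12 at Stat6 and young cells from 8.79 at Stat5a to 9.44 at Stat6. Stat6, Jak2 and Stat3 were the highest 3 at each age, in that order, and Stat5a the lowest. With no values per sample, neighbours in this order cannot be told apart.

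**Figure D1:**
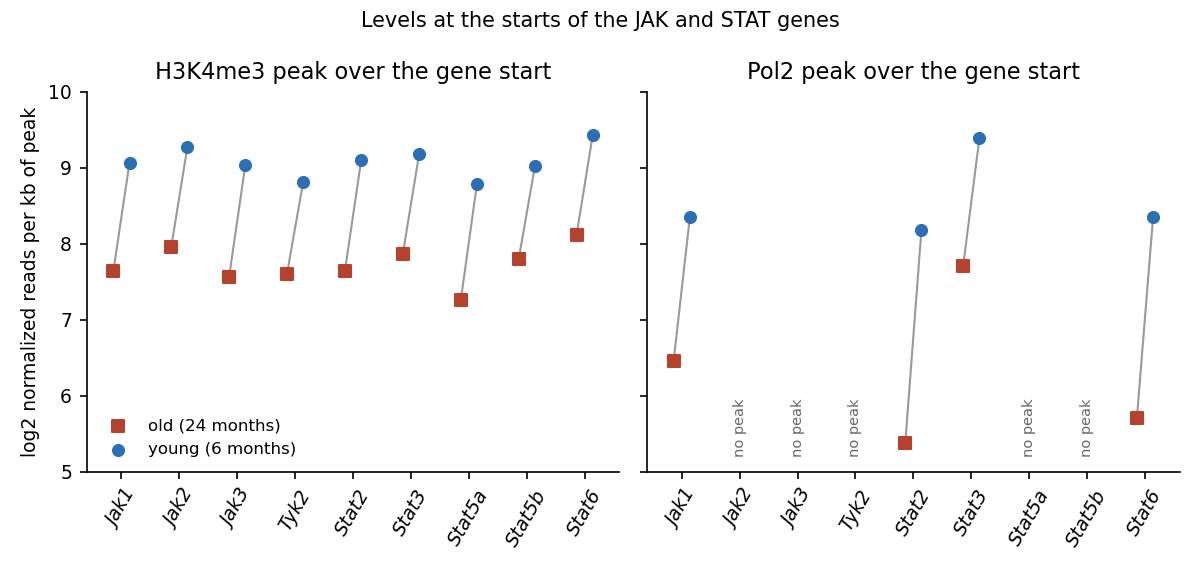
Mean log2 normalized reads per kb of peak (vertical axis) in old and young cells for the H3K4me3 and Pol2 peaks over the start of each JAK and STAT gene (2 samples per age in each assay, group means only, so no error bars). Every old value lies below the young value of the same gene, and only Jak1, Stat2, Stat3 and Stat6 have a Pol2 peak.

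The remaining H3K4me3 peaks lay away from the main starts. Stat3 had a pair annotated to an intron, with log2 fold changes of −0.75 (FDR 0.0245) and −0.64 (FDR 0.174), and another, 40.87 to 42.02 kb from its start, at −1.09 (FDR 0.0313) in the authors' deposited table. A second Stat6 peak, 575 bp from another annotated start, had −1.01 (FDR 0.0205) in the authors' deposited table. The other 4 peaks were not called, with log2 fold changes of −0.34 at the second Stat5b start (FDR 0.617), −1.28 and −1.07 upstream of Stat5a (FDR 0.256 and 0.051) and −0.06 upstream of Stat6 (FDR 0.927), all in the authors' deposited table.

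Pol2 peaks were present at 4 of the 9 members, Jak1, Stat2, Stat3 and Stat6, and each of the 4 starts had a lower Pol2 level in old cells. Of all genes with an H3K4me3 promoter peak, 27.6% had a Pol2 peak. Over its start, Stat2 had a log2 level of 4.66 in old and 7.47 in young cells, a log2 fold change of −2.81 (FDR 0.00155) in the authors' deposited table. For Stat6 the log2 levels were 6.68 in old and 9.33 in young cells (−2.65, FDR 0.00394, in the authors' deposited table). At Jak1 they were 7.74 in old and 9.63 in young cells, with −1.90 and an FDR of 0.0165 in the authors' deposited table. Over the Stat3 start they were 9.08 in old and 10.76 in young cells, with −1.67 and an FDR of 0.028 in the authors' deposited table. Beside the median of all Pol2 promoter peaks, −2.28, Stat2 and Stat6 were lower and Jak1 and Stat3 higher. The quartiles of those peaks were −2.84 and −1.75, and only Stat3 lay outside them. Counting every Pol2 peak of the members, 5 of 24 were called lower, 0 higher and 19 not called, beside 52.9% lower and 0.0442% higher among all Pol2 peaks and 79.1% lower among promoter peaks. Their median was −0.155, beside −1.72 over all peaks, and 18 of the 24 lay in Stat3 outside promoters. At an unadjusted p under 0.05 the deposited DiffBind test has the same counts, 5 and 0. No Pol2 peak is listed for Jak2, Jak3, Tyk2, Stat5a or Stat5b.

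Stat3 stood out by the number of its Pol2 peaks. It had 21, reaching from −0.74 to 48.72 kb of a gene of 52.8 kb, while 80.9% of the 3595 genes with a Pol2 peak had 1. Only 0.389% of these genes, 14 in all with Stat3, had as many peaks as Stat3 or more. Along the gene the change with age was large at the start and small beyond it. The peak over the start had −1.67, the next, from 1.95 to 4.29 kb, had −0.68 (FDR 0.452), and those that followed had −0.30 (FDR 0.805) and −0.14 (FDR 0.911) in the authors' deposited table. In total 19 of the 21 were not called. Their median was −0.14 and their range −0.68 to 0.64, with 13 below 0 and 6 above, from the values of the authors' deposited table. The other called peak lay 48.23 to 48.72 kb from the start, with log2 levels of 4.32 in old and 6.47 in young cells (−2.16, FDR 0.0189, in the authors' deposited table). It is annotated at −506 bp from another start site of Stat3.

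A lower value at the start than beyond it was common among genes with Pol2 peaks across the body. All Pol2 peaks outside promoters had a median of −0.83, and 20.6% of them were called lower, beside 0 of 18 for Stat3, in the authors' deposited table. Over the 159 genes with a promoter peak and at least 3 Pol2 peaks outside promoters, the promoter value minus the median outside had a median of −1.16, with quartiles of −1.61 and −0.46. At Stat3 this difference was −1.53, and 29.6% of the 159 genes had a lower one. The median outside promoters was higher than that of Stat3 in 26.4% of them. For H3K4me3, Stat3 had −1.31 over the start, −0.75 and −0.64 at the intronic pair and −1.09 farther on, in the authors' deposited table.

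**Figure D2:**
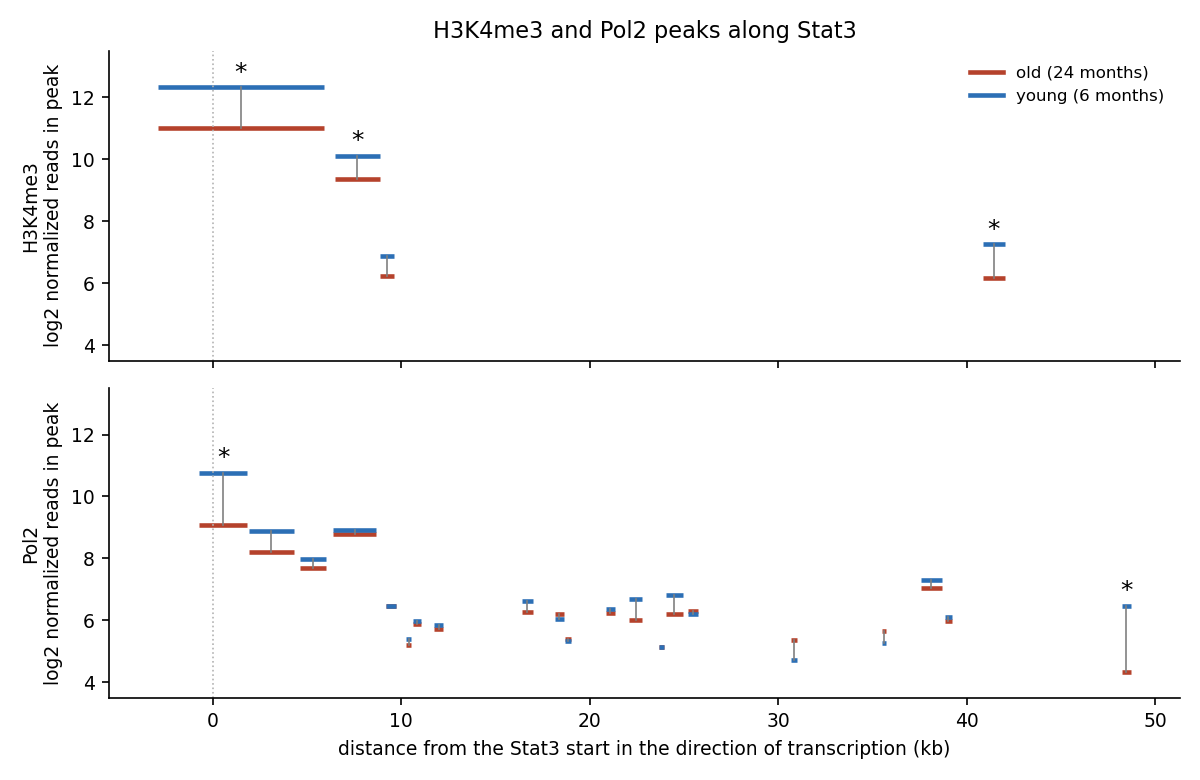
H3K4me3 (upper) and Pol2 (lower) peaks along Stat3, placed by distance in kb from the RefSeq start in the direction of transcription, with the mean log2 normalized reads of old and young cells as horizontal bars as wide as the peak and a star where the authors' FDR is under 0.05. The gap between the ages is widest at the start (−1.67 for Pol2) and near 48 kb (−2.16), and is small or absent at the 19 other Pol2 peaks.

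An H3K27me3 peak was annotated to 1 of the 9 members, Jak2, beside 37.3% of all genes with an H3K4me3 promoter peak. No H3K27me3 peak lay at the start of any of the 9 members, and no member H3K4me3 peak overlapped an H3K27me3 peak by even 1 bp, so that none had a bivalent promoter by the deposited peaks. The Jak2 peaks were a pair in the intergenic stretch before the gene. The one at −10319 bp had log2 levels of 8.79 in old and 8.46 in young cells (0.33, FDR 0.416), and the one at −20288 bp had 6.67 in old and 6.14 in young cells (0.53, FDR 0.566), in the authors' deposited table. Neither was called, 0 of 2 also at an unadjusted p under 0.05 with DiffBind, beside 2.60% of all H3K27me3 peaks lower and 2.66% higher. Beyond the end of Stat2 the next H3K27me3 peak lay 5030 bp away, over the promoter of Il23a, which encodes a subunit of interleukin-23. Its log2 level was 6.82 in old and 5.36 in young cells, and it was called higher in old cells (1.46, FDR 0.00929, in the authors' deposited table).

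Open chromatin could be followed library by library. The deposited ATAC-seq table holds 7849 peaks, already selected on the same libraries for a difference between the ages. Fold changes, FDR values, calls and the separation of the groups are thus partly a result of the selection. The table lists 3 peaks for Jak1 and 2 for Jak2, none of them at a promoter, and none for the other 7 members. Such a peak is listed for 24.5% of all genes with an H3K4me3 promoter peak. All 5 had lower mean counts in old cells, as had 85.9% of the listed peaks. The listed peaks together held 1572998 to 1946804 counts in the old libraries and 2456110 to 2773284 in the young ones, which are not library depths.

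The Jak1 peak at chr4:101270701-101271150, −5419 bp from the annotated start, had 109, 154, 101 and 100 counts in the old libraries, against 235, 263, 177 and 232 in the young ones. Every old library was below every young one. The means were 116 ± 25.7 in old and 226.8 ± 36.0 in young libraries (SD, n = 4 each), and the log2 fold change was −0.97 (edgeR quasi-likelihood test with equal library sizes, Benjamini-Hochberg FDR 0.0203). A second Jak1 peak, in an intron 62082 bp inside the gene (chr4:101202551-101203200), had 588, 631, 485 and 444 counts in the old libraries and 748, 715, 821 and 918 in the young ones. Here too the groups did not overlap, and edgeR gave −0.58 with an FDR of 0.0248. The third, in an intron at 11132 bp (chr4:101253901-101254150), had 91, 61, 27 and 23 counts in the old libraries and 91, 88, 102 and 91 in the young ones. The old libraries spread from 23 to 91 and reached the young range, and the peak was not called (−0.88, edgeR FDR 0.0676).

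The Jak2 peak annotated to an exon at 19348 bp (chr19:29271151-29271550) had 129, 119, 157 and 122 counts in the old libraries and 131, 199, 289 and 284 in the young ones. The groups overlapped through the lowest young library, and edgeR gave −0.78 with an FDR of 0.0392. The other Jak2 peak, in an intron at 13698 bp (chr19:29265501-29266000), had 164, 176, 196 and 117 counts in the old libraries and 320, 162, 213 and 325 in the young ones. These overlapped and the peak was not called (−0.64, edgeR FDR 0.0573). In all, 3 of the 5 were called lower, beside 46.4% of all listed peaks, and in 2 of the 5 every old count was below every young count, beside 35.8% of all listed peaks.

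These calls rest on comparing the counts without scaling. Because the peaks were selected on the same libraries, the FDR does not measure the share of false calls. With TMM scaling edgeR called 0 of the 5, and 0 had an unadjusted p under 0.05, also by DESeq2 with its own size factors. The log2 fold change of the Jak1 peak at −5419 bp was then −0.38 (FDR 0.735), and that of the one at 62082 bp was 0.01 (FDR 1). Over all listed peaks TMM moved the median log2 fold change by 0.59, and 0.701% were then called lower and 13.9% higher. Without old replicate 3, edgeR called 1 of the 5 peaks, and the Jak2 peak at 19348 bp was called in 1 of the 8 fits that leave out a library, with FDR values from 0.0265 to 0.0953. None of the 5 ATAC-seq peaks overlapped an H3K4me3, Pol2 or H3K27me3 peak.

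**Figure D3:**
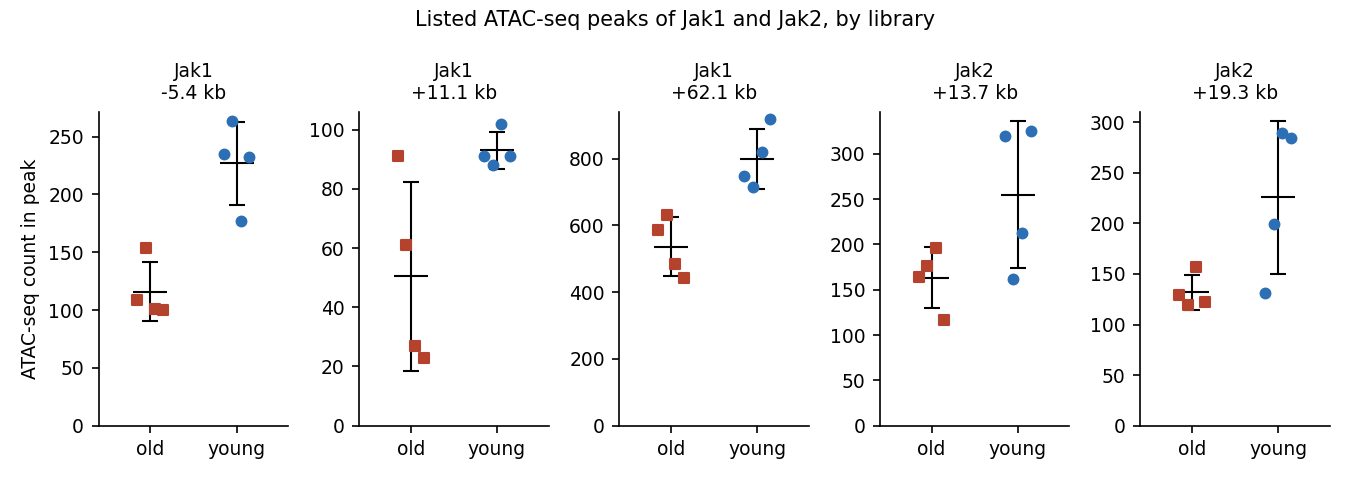
Counts per library (vertical axes from 0, one scale per peak) in the 5 listed ATAC-seq peaks of Jak1 and Jak2, titled by distance from the annotated start, with each library as a point and the mean ± SD of 4 libraries per age in black. The old libraries lie below all young ones at the Jak1 peaks at −5419 and 62082 bp, and overlap them at the other peaks.

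RNA was available only for genes with an adjusted p up to 0.1, and the smallest absolute log2 fold change among them was 0.3. Of the 9 members the table lists Stat2 alone. The authors' deposited table gives it a mean normalized count of 654 over all libraries and a log2 fold change, old against young by the header, of −0.56 with an SE of 0.18 and an adjusted p of 0.0591. It was therefore not called at 0.05, where 339 of the 597 listed genes were called in either direction and 18.8% of the 597 were called lower. By the unadjusted p, 0.0016, DESeq2 has 1 member under 0.05 in the authors' deposited table, and the p-values of the 8 other members are not in it. H3K4me3 and Pol2 were thus called lower over the Stat2 promoter in old cells, as were 94.3% and 79.1% of all promoter peaks. The RNA value, of the same sign, did not pass the threshold. Of the marker genes of stem cells and other cell types the authors' deposited table lists 3, none of them called: Acta2, of smooth muscle, at −0.69 (adjusted p 0.0741), Col1a2, of fibroblasts, at −0.39 (0.0861), and Nfatc1, of the stem cells, at −0.34 (0.0948). Their part in the Stat2 value was not tested. In bulk samples, fewer cells with a transcript and less of it per cell cannot be told apart.

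The wider pathway was followed through 141 genes in 5 lists. At promoters or elsewhere, 83 of the 89 genes with an H3K4me3 peak had a peak called lower in old cells and 0 had one called higher, beside 95.5% of all genes with a peak called lower and 0.158% called higher. For Pol2 it was 25 of 30 lower and 0 higher, beside 84.5% and 0.0556%. For H3K27me3 it was 6 of 74 lower and 11 higher, beside 11.2% and 10.5%. These shares are those of the authors' deposited tables, and they lie near the background of each assay. Over their H3K4me3 peaks the lists had median log2 fold changes of −1.35 for ligands, −1.12 for receptors, −1.46 for inhibitors, −1.36 for targets and −1.27 for interferon-response genes, beside −1.37 over all peaks, so that relative to that median the inhibitors were lower and the other lists higher. Over promoter peaks alone they were −1.57, −1.20, −1.47, −1.44 and −1.26 in the same order, beside −1.42 over all promoter peaks, and ligands, inhibitors and targets lay below it. For Pol2 the medians over all peaks of a list were −1.69, −0.66, −2.62, −1.49 and −1.62, beside −1.72. Of the 44 receptor peaks among these, 28 belonged to Il31ra, the interleukin-31 receptor, and over promoter peaks the Pol2 median was −2.16 for receptors and −1.59 for targets, with the other lists as before, beside −2.28. For H3K27me3 they were 0.02, 0.32, 0.65, 0.26 and 0.18, beside 0.12. Over H3K27me3 promoter peaks they were 0.15 for ligands, 0.16 for receptors, −1.44 for inhibitors (2 peaks of 1 gene) and −0.02 for interferon-response genes, beside −0.05, and the targets had none.

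Among the ligands, 10 of 11 genes with an H3K4me3 peak were called lower and 0 higher, beside 95.5% and 0.158% of all genes with one. The largest changes were at Il11 (−1.80) and Clcf1 (−1.76), both cytokines of the interleukin-6 family, Epo (−1.72), the gene of erythropoietin, and Lif (−1.68), the leukaemia inhibitory factor, in the authors' deposited table. The only ligand with a Pol2 peak was Ctf1, the gene of cardiotrophin-1 (−1.69, FDR 0.0392, in the authors' deposited table). Of the 24 ligands with H3K27me3, 2 were called lower and 2 higher. Il12b and Il12a, which encode the subunits of interleukin-12, had less of the mark in old cells (−1.08 and −0.73 in the authors' deposited table), in contrast to Il23a, whose product pairs with that of Il12b.

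Of the receptors, 24 of 26 genes with H3K4me3 were called lower, beside 95.5% of all genes with an H3K4me3 peak. All 6 with Pol2 had a peak called lower, beside 84.5% of all genes with a Pol2 peak, and 5 of 6 over promoter peaks. Il31ra was called only at 2 of its 27 Pol2 peaks outside promoters, and its promoter peak was not called (−1.01, FDR 0.224, in the authors' deposited table). Il6st, the gp130 chain that signals through STAT3, had Pol2 log2 levels of 5.43 in old and 8.70 in young cells over its promoter (−3.27, FDR 0.000692, in the authors' deposited table). Osmr, the oncostatin M receptor, had 7.79 in old and 9.90 in young cells (−2.11, FDR 0.0135, in the same deposited table). Ifngr1, an interferon-γ receptor chain, had −2.40 and Il11ra1, the interleukin-11 receptor, −2.20, in the authors' deposited table. For H3K4me3 the largest values were at Csf2ra (−2.14), Epor (−1.78), Il6st (−1.53) and Il4ra (−1.50), which encode receptor chains for granulocyte-macrophage colony-stimulating factor, erythropoietin, the interleukin-6 family and interleukin-4, in the authors' deposited table. H3K27me3 was called lower at 1 receptor of 24, Cntfr (−1.48), and higher at 3, among them Csf3r (1.13), in the authors' deposited table. The promoter peak of highest level at Csf3r was not called (0.55, FDR 0.0583, in the same deposited table).

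Among the inhibitors, all 17 genes with H3K4me3 and 6 of 7 with Pol2 were called lower, beside 95.5% and 84.5% of all genes with such peaks. Pol2 at Ptpn1, a phosphatase that acts on JAK2 and TYK2, had log2 levels of 3.83 in old and 8.45 in young cells (−4.62, FDR 3.33e-06, in the authors' deposited table). Socs1 and Ptpn2, a SOCS protein and a phosphatase that act on JAK1, had Pol2 values of −3.07 and −2.76, and Pias4 had −2.62, in the authors' deposited table. Of H3K4me3, Cish, a target and inhibitor of STAT5, had −1.40 (FDR 1.14e-05) at its promoter peak of highest level, close to the promoter median, in the authors' deposited table. Its largest change was one with log2 levels of 3.28 in old and 6.33 in young cells at a small peak at −893 bp from its start (−3.05, FDR 5.01e-06, in the authors' deposited table). Socs1 had −1.88, Socs2 −1.68 and Ptpn2 −1.65, in the same deposited table. H3K27me3 was called lower in an intron of Socs2 (−1.12) and higher at intergenic peaks of Ptpn11 (1.61) and Pias1 (1.47), in the authors' deposited table. Socs6 was the single gene of the 141 that the RNA table lists. Its log2 fold change was −0.57 with an SE of 0.15 and an adjusted p of 0.0146 in the authors' deposited table, so it was called lower in old cells.

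Of the known STAT targets, 16 of 17 with H3K4me3 and 10 of 12 with Pol2 were called lower. The shares over all genes with such peaks were 95.5% and 84.5%. Pol2 values were −3.70 at Bcl2l1, the survival gene for BCL-XL, −2.72 at Hif1a, −2.42 at Vegfa and −2.36 at Icam1, in the authors' deposited table. H3K4me3 values were −2.27 at Bcl3, −1.77 at Pim3, −1.75 at Birc5 and −1.68 at Pim1, in the authors' deposited table. Among H3K27me3 peaks, Vegfa had one called lower, at −2289 bp from its start (−2.30), and one called higher, 82031 bp away (1.21, FDR 0.0498), in the authors' deposited table.

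Of the interferon-response genes, 16 of 18 with H3K4me3 and 2 of 4 with Pol2 were called lower. Over all genes with such peaks it was 95.5% and 84.5%. Irf9, whose product partners STAT2, had H3K4me3 log2 levels of 7.57 in old and 9.42 in young cells (−1.85, FDR 1.95e-06, in the authors' deposited table). Isg20 and Bst2, antiviral genes, had −1.45 and −1.43 in the same deposited table. Mx2, another antiviral gene, had −1.12 (FDR 0.00104) at its promoter peak of highest level and −1.72 at a smaller one, with log2 levels of 4.50 in old and 6.22 in young cells, in the authors' deposited table. Pol2 was called lower at Irf7 (−2.49) and Irf1 (−1.79), and H3K27me3 higher at 3 genes, among them Oas1a (0.58), in the authors' deposited table. H3K27me3 was called lower at a weak peak of Cxcl10, with log2 levels of 2.41 in old and 5.33 in young cells (−2.92, FDR 0.0499), while the promoter peak of highest level at this gene was not called (−0.94, FDR 0.311), in the authors' deposited table. The ATAC-seq table lists no peak for these genes, while it lists 12 lower and 3 higher peaks for ligands, 27 and 3 for receptors, 7 and 1 for inhibitors and 21 and 1 for targets, by mean counts in old against young libraries. Of all listed ATAC-seq peaks, 85.9% were lower by this measure.

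**Figure D4:**
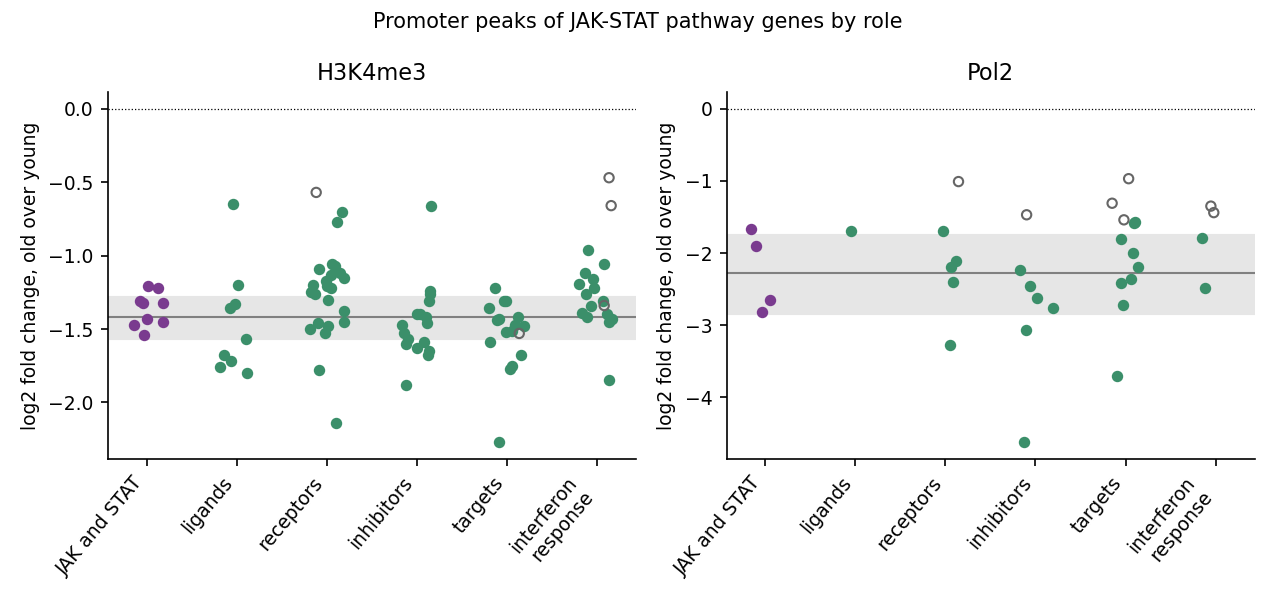
Log2 fold change, old over young, of the H3K4me3 and Pol2 promoter peak of each JAK and STAT gene and of the pathway genes by role, filled where the authors' FDR is under 0.05. The grey line and band are the median and quartiles of all promoter peaks (−1.42 with −1.57 and −1.28 for H3K4me3, −2.28 for Pol2). Every point shown lies below 0.

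Genes with nearly the same pair of promoter values as Stat3 and Jak1 were common. Over 2939 genes with both H3K4me3 and Pol2 promoter peaks, the nearest to Stat3 were Myl12a, at −1.30 and −1.67, Mbnl2, at −1.32 and −1.69, and Luc7l3, at −1.31 and −1.64, in the authors' deposited tables. The nearest to Jak1 were Bcam, Ctdsp2 and Mark4. Within a distance of 0.1 on the log2 scale there were 50 genes around Stat3 and 104 around Jak1.

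The sorted cells had H3K4me3 at marker genes of follicle stem cells, and at some of other cell types. All 14 marker genes, among them Cd34, Itga6, Krt15 and Lhx2, had H3K4me3 promoter peaks, with 7.97 to 9.80 log2 reads per kb in old and 9.43 to 11.48 in young cells. Of 18 immune markers 3 had one (Cd68, Coro1a and Ikzf1), with 5.69 to 6.68 in old and 7.33 to 7.97 in young cells, and Ptprc and Cd3e had none. The lymphocyte kinase gene Jak3 had 7.57 in old and 9.04 in young cells on this scale. Promoter peaks were present at 3 of 7 fibroblast markers, 5 of 11 endothelial, muscle, glial and melanocyte markers and 6 of 9 interfollicular and sebaceous markers. Not divided by width, the old log2 levels of the interfollicular and sebaceous ones were 7.68 to 9.81, beside 10.40 to 14.81 at the stem cell markers. The part of other cells in the results was not tested.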

How the data were processed

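The tools were STAR 2.5.2b, featureCounts and DESeq2 1.22.2 for RNA, BWA 0.7.12 for ATAC-seq, and BWA 0.7.15, MACS2 2.2.7.1 and DiffBind 2.14.0 for ChIP-seq, on GRCm38, per the submitters' processing notes. The RNA table deposited by the authors holds a mean normalized signal per gene, a log2 fold change with its SE, a Wald score, a p-value and an adjusted p-value, per the file headers. The ChIP-seq tables deposited by the authors hold log2 mean normalized counts per age, their log2 difference (young minus old, turned here to old over young), a p-value and an FDR. The ATAC-seq table deposited by the authors holds whole-number counts per library, a log2 ratio of unscaled means and a −log10 p-value. The ChIP-seq normalization and the RNA and ChIP-seq depths are unknown (not given in the sources used here). Peak positions and gene annotations are those of the deposited tables.

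The ATAC-seq counts were tested with edgeR 4.0.16 in R 4.3.3 (quasi-likelihood F-test, two-sided, equal library sizes, no filter, Benjamini-Hochberg adjustment over all 7849 peaks), after the script had been tested on simulated data. TMM, listed-peak totals, DESeq2 1.42.0, filterByExpr, a replicate block and the omission of each library were alternatives. Each pair of libraries differed by more than sampling noise (chi-square per degree of freedom of 10.8 in the closest pair). The design text calls the samples biological replicates. For the other tables the authors' FDR or adjusted p under 0.05 counts as called. A level per kb is the log2 level minus the log2 of the peak width in kb. Other values were computed with Python 3.11.15, pandas 2.3.3 and numpy 2.4.6, and figures with matplotlib 3.10.9.

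The members, the pathway lists, the marker lists and the rules were chosen with earlier results of these data known. Of each list, up to 4 genes with the largest log2 fold change among called promoter peaks were named per table and direction, or called peaks anywhere where no promoter peak was called, and in the RNA table all listed genes. A result that this rule would name is not reported here. Il31ra was named after its number of Pol2 peaks was seen. Protein sequences of the members were not analysed here.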

Additional observations from a re-analysis of the deposited data

Results flagged for a closer look

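In the Jak1 ATAC-seq peak at −5419 bp from the annotated start, old replicate 2 had 154 counts and stood far from the 100, 101 and 109 counts of the other old libraries, by Dixon's test at the 95% level. It was still below the lowest young library, at 177 counts. Of 10 groups of 4 libraries tested this was the only one, and chance flags about 1 in 20 groups.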

How the results depend on the processing

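The 3 calls among the 5 Jak1 and Jak2 ATAC-seq peaks became 0 with TMM, listed-peak totals or DESeq2 size factors and 0 at an FDR of 0.01, 5 at 0.1, and 1 to 3 when a library was left out. All listed peaks called lower, 3643, became 55 with TMM, 80 with totals, 82 with DESeq2 size factors, 6219 at an FDR of 0.1, 155 at 0.01 and 1409 to 3197 without a library (1409 without old replicate 3, 1867 without old replicate 4, and 1846 and 2099 without young replicates 3 and 4). Those called higher, 426, became 1088, 1070, 1082, 968, 23 and 141 to 373 in the same order (141 without old replicate 3, 254 and 246 without old replicates 1 and 2, and 265 and 181 without young replicates 2 and 3). The Jak1 peak at 62082 bp reversed to 0.01 with TMM, with or without the block, and 0 member peaks lie at promoters. Between old and young ATAC-seq libraries of equal replicate number, the correlations of their deviations were −0.03, −0.11, 0.04 and −0.19. Such values show no shared deviation but cannot tell whether the libraries were prepared in pairs. With the replicate block 1 of the 5 peaks was called (0 with TMM), and of all peaks 755 lower and 91 higher (49 and 1055 with TMM). No paired analysis was possible for the other assays because their tables hold no values per sample.

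At an FDR of 0.01 the called H3K4me3 peaks of the members fell to 9 and those of Pol2 to 2. Relative to the table medians, the median log2 fold change over all member peaks was 0.15 for H3K4me3, 1.56 for Pol2 and 0.31 for H3K27me3 (2 peaks of Jak2 alone). On that scale these called H3K4me3 peaks changed sign: Jak2 at 0.05, Jak3 at 0.09 and 0.21, Tyk2 at 0.16, Stat3 at 0.06, 0.28 and 0.62, Stat5b at 0.15 and Stat6 at 0.05 and 0.36. So did the Stat3 start for Pol2, at 0.05. Of the 24 Pol2 peaks behind the value of 1.56, 18 lay in Stat3 outside promoters. The 6 member promoter peaks had a median of −2.03, beside −2.28 over all Pol2 promoter peaks. At an adjusted p of 0.1, 1 member, Stat2, counts as called in RNA. This follows from its being listed, since every listed gene has an adjusted p up to 0.1. An overlap of at least 0.5 of the H3K4me3 peak with Pol2 was met by 1 member promoter, against 4 at 1 bp. With promoter peaks only, H3K27me3 calls became 1 higher for ligands, 0 lower and 0 higher for inhibitors and for targets, and 1 higher for interferon-response genes. The cause was not tested. With 2 samples per age and no values per sample, the spread behind the H3K4me3 and Pol2 values is not visible, and a gene without a listed peak or RNA value has no measured change.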
